A study of Mus musculus with 2 samples.

Results

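Eomes, Tbx21, Zeb2, Id2 and Id3 are transcription factor genes that set the fate of natural killer (NK) cells and T cells. They were chosen by name, as the T-box pair, the zinc finger factor Zeb2 and the Id pair, and make 5 of the 32285 genes counted. Transcripts were counted cell by cell in the live CD45+ fraction of B16.SIY melanomas, a mouse line with a model antigen, that grew under the skin of B6 mice until day 14. Before injection the tumour cells had been given a lentivirus with a control shRNA (the control library) or with an shRNA against Decr2 (the knockdown library), and puromycin at 1.5 µg/mL for 3 days. The shRNA was therefore carried by the tumour cells and not by the lymphocytes described here. Decr2 codes for an enzyme of peroxisomal fatty acid breakdown. Each group is 1 library, the number, age and sex of the mice behind it are not given in the sources used here, and cells of several mice may have been pooled. No difference below has a replicate check, and every interval in brackets is an exact 95% interval that covers counting error only.

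Eomes (eomesodermin) and Tbx21 (T-bet) are related T-box factors. Both drive genes of killing and interferon gamma in NK cells and in CD8 T cells, and Eomes separates conventional NK cells from type 1 innate lymphoid cells (ILC1). Zeb2 represses transcription at E-box sequences and acts with T-bet in the last steps of NK cell maturation and of effector CD8 T cell differentiation, stages marked by Klrg1. Id2 and Id3 have no DNA-binding domain of their own and work by holding E proteins off DNA. In T cells Id2 is known for effector cells, Id3 for naive, memory and precursor cells, and NK cell development needs Id2. Xcl1 is a chemokine of NK and CD8 T cells that attracts cross-presenting dendritic cells.

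The counts are unique molecular identifiers (UMIs), and levels are CPM, the UMIs of a gene over all UMIs of the cells of a class in 1 library, on the usual CPM scale. The control library held 11335 barcodes and 47538493 UMIs and the knockdown library 9542 and 55417986, and kept cells had a median of 2879 and 4453 UMIs, a 1.55-fold gap in depth. Decr2 itself was at 5.14 and 4.41 CPM over kept cells, and in the 70 and 50 gated melanoma cells at 5.61 (17 UMIs) and 3.87 CPM (10 UMIs), a ratio of 0.690 (0.282–1.60) that includes 1. The libraries shared 34 barcode sequences. Classes were gated on marker UMIs that exclude the 5 factors, and 36.5% of kept control cells and 36.4% of kept knockdown cells passed no gate.

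NK cells (1839 control and 1342 knockdown cells) held at least 2 UMIs of Ncr1 and Klrb1c and no CD3 UMI. Their Ncr1 level was 643 and 477 CPM, Trac was at 24.1 and 26.8 CPM, and of the ILC1-type genes Itga1 was at 10.6 and 16.7 CPM and Cxcr6 at 10.8 and 11.6 CPM. CD8 T cells (1565 and 1206 cells) held CD3 and Cd8b1 UMIs, with Cd8a at 543 and 470 CPM. NK receptor T cells (669 and 524 cells) held CD3 UMIs and NK receptor UMIs but no Cd8b1, Cd4 or Foxp3 UMI. This gate is mixed: Trac was at 270 and 195 CPM, Trdc at 138 in each library, Ncr1 at 196 and 182 CPM, and the myeloid gene Lyz2 at 298 and 140 CPM. Gamma delta T cells (134 and 104 cells) had Trdc at 1379 and 1153 CPM.

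The member genes lie on 5 chromosomes of GRCm38 in GENCODE M21. Eomes (ENSMUSG00000032446) is at chr9:118478212-118486132 on the plus strand and Tbx21 (ENSMUSG00000001444) at chr11:97098071-97115331 on the minus strand. Zeb2 (ENSMUSG00000026872) is at chr2:44983632-45117395 on the minus strand, where it overlaps the antisense gene Zeb2os. Id2 (ENSMUSG00000020644) is at chr12:25093799-25097140 on the minus strand and Id3 (ENSMUSG00000007872) at chr4:136143497-136145755 on the plus strand. Use of strand in the counting is not stated, so reads of Zeb2 and Zeb2os may not be fully separated; Zeb2os was at 2.75 and 1.81 CPM in NK cells. Eomes overlaps the opposite-strand gene model Gm33460 in the same way.

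The promoters of the T-box pair are shown because ZEB factors bind E-boxes and both genes are read here against Zeb2. Each line is the 250 bases before the RefSeq transcript start on GRCm38.p6, read 5′ to 3′ in the direction of the gene, and the capitals mark CAGGTG, the E-box form bound by ZEB proteins. The Tbx21 window is chr11:97115332-97115581 on the minus strand, and its CAGGTG starts 196 bases before the transcript start. The Eomes window is chr9:118477939-118478188 on the plus strand.
Tbx21 promoter: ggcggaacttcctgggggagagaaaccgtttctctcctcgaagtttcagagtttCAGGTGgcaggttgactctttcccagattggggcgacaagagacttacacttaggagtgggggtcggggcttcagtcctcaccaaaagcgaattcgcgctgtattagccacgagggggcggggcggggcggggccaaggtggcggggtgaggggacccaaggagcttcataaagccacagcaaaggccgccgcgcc
Eomes promoter: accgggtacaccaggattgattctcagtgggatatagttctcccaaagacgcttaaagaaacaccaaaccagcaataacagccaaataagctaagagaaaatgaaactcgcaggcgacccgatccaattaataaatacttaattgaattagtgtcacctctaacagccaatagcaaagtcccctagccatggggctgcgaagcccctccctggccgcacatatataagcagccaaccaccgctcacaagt
Among the windows of the 5 members, searched on both strands, CAGGTG was found in that of Tbx21 only, while 17.2% of 32851 mouse windows of the same length hold it. CAGCTG, another E-box, was found in the Id2 window only (13.0% of windows hold it), and the T-box sequence AGGTGTGA in none of them (1.12% of windows hold it). These are letter matches in short windows and not evidence of binding.

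Both T-box genes were highest in NK cells. Eomes stood at 259 CPM (245–274) in control NK cells and at 308 CPM (293–323) in knockdown NK cells. In NK receptor T cells it was at 88.5 and 145 CPM, in CD8 T cells at 64.4 and 55.3 CPM, and in gamma delta T cells at 35.9 and 33.0 CPM. CD4 T cells had 15.9 and 18.6 CPM, regulatory T cells 5.76 and 11.7 CPM, and in B, myeloid, dendritic and melanoma cells it was at 9.30 CPM or less. The first 4 places had the same order in both libraries.

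Eomes exceeded Tbx21 in CD8 T and NK receptor T cells, but Tbx21 was spread more evenly over the T cell classes. It was at 115 and 110 CPM in NK cells, 72.7 and 67.7 CPM in NK receptor T cells, 50.4 and 40.4 CPM in CD4 T cells, 44.2 and 37.7 CPM in gamma delta T cells, and 31.8 and 39.2 CPM in CD8 T cells. The intervals of the last 3 classes overlapped in each library, so their order is not set. Control B cells had 0 Tbx21 UMIs, which allows up to 7.05 CPM (3 counts of the B cell total).

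Zeb2 had another distribution, with the myeloid and dendritic classes at the top. Monocytes and macrophages had 811 and 833 CPM, plasmacytoid dendritic cells 418 and 383 CPM, and conventional dendritic cells 206 and 220 CPM. NK cells followed at 195 CPM (183–207) and 200 CPM (189–213). Melanoma cells had 144 and 155 CPM, and B cells 153 and 93.0 CPM. NK receptor T cells had 113 and 73.1 CPM, and CD8 T cells were the lowest of the 11 classes at 46.6 and 41.3 CPM.

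The Id pair divided the same cells differently. Id2 was highest in NK cells, at 923 and 985 CPM, then in NK receptor T cells at 511 and 622 CPM, and at 431 and 395 CPM in CD8 T cells. Plasmacytoid dendritic cells, which depend on an E protein, had the least Id2 at 13.9 and 40.0 CPM. Id3 was nearly absent from NK cells, with 21 UMIs over 1839 cells (4.12 CPM) and 22 over 1342 cells (3.99 CPM). It was at 6.63 and 12.9 CPM in CD8 T cells, 73.1 and 53.5 CPM in NK receptor T cells, 55.3 and 56.6 CPM in gamma delta T cells, and highest in monocytes and macrophages at 119 and 131 CPM.

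**Figure D1:**
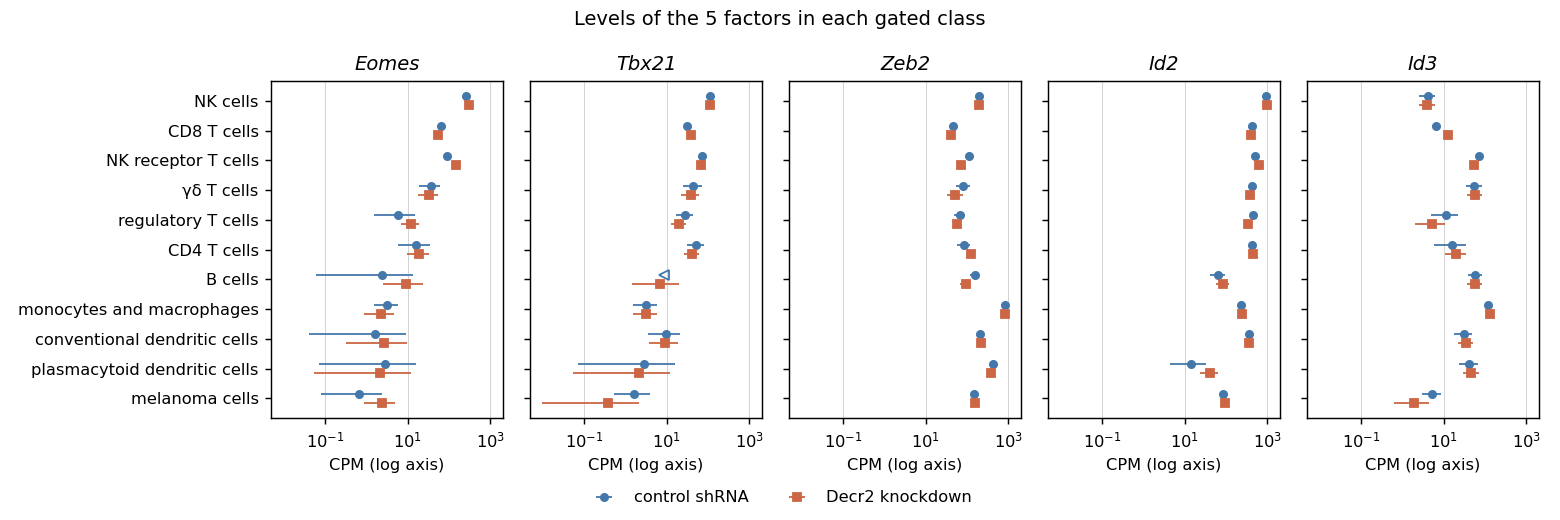
Level of each factor (CPM on a log axis) in 11 gated classes, with circles for the control library and squares for the knockdown library; bars are exact 95% Poisson intervals and the open triangle is the upper bound for 0 UMIs. Eomes, Tbx21 and Id2 peak in NK cells, Zeb2 in monocytes and macrophages, and Id3 is near 4 CPM in NK cells of both libraries.

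NK cells exceeded CD8 T cells for 4 of the 5 factors. In the control library the ratio of NK to CD8 T cell CPM was 4.03 (3.69–4.40) for Eomes, 3.60 (3.17–4.09) for Tbx21, 4.19 (3.78–4.64) for Zeb2 and 2.14 (2.06–2.23) for Id2. In the knockdown library the same ratios were 5.57 (5.13–6.04), 2.81 (2.51–3.15), 4.85 (4.40–5.35) and 2.49 (2.40–2.59). Id3 went the other way, at 0.621 (0.366–1.01) and 0.309 (0.190–0.481). A fold of 2 or more in either direction was reached by 4 of 5 members in control cells, against 23.6% of all genes with 50 or more UMIs, and by 5 of 5 in knockdown cells, against 24.4%. Id3 was 17.8-fold (11.2–29.5) higher in NK receptor T cells than in NK cells of the control library and 13.4-fold (8.51–22.1) higher in the knockdown library.

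The share of cells with a UMI was compared after each cell had been thinned to 1000 UMIs. An Eomes UMI was then found in 21.5% of control and 25.1% of knockdown NK cells, in 5.83% and 4.81% of CD8 T cells, and in 0.413% and 0.676% of B cells, which should lack it. Without thinning the NK shares were 45.1% and 62.1%, at median depths of 2482 and 3647 UMIs. Zeb2 was found in 17.9% and 20.4% of thinned NK cells against 51.7% and 51.4% of monocytes and macrophages. Id3 was found in 0.330% and 0.150% of thinned NK cells and in 4.97% and 3.63% of NK receptor T cells. At 2000 UMIs, 95 control NK cells held both an Eomes and a Tbx21 UMI where the product of the 2 shares gives 90.9 cells, and 102 knockdown NK cells where it gives 104.

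Genes whose level followed a member most closely over the 22 sums (11 classes in 2 libraries) were found by Pearson correlation of log2(CPM + 10), as a description, since all genes of a sum share its cells and depth. For Eomes these were Klre1 (r = 0.978), an NK receptor gene, Dapk2 (0.972) and Sult2b1 (0.972). For Tbx21 they were Ctla2a (0.964), Sytl3 (0.959) and Il18rap (0.958), a subunit of the interleukin 18 receptor. For Zeb2 they were Rgl1 (0.947), Neat1 (0.930) and Tpd52 (0.918), for Id2 Vasp (0.913), Nr4a2 (0.909) and Galnt6 (0.906), and for Id3 Gngt2 (0.808), BC005537 (0.800) and Filip1l (0.798). Between members, Eomes and Tbx21 had r = 0.903 and Tbx21 and Zeb2 r = -0.49.

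NK cells with a Klrg1 UMI had more Zeb2 in both libraries. Klrg1 codes for an inhibitory receptor of mature NK cells, and a UMI of it was found in 115 of 1820 thinned control NK cells and 81 of 1331 thinned knockdown NK cells. Zeb2 was at 188 CPM in control NK cells without and 279 CPM in those with Klrg1, a ratio of 1.48 (1.16–1.86). In the knockdown library it was at 195 and 293 CPM, a ratio of 1.50 (1.20–1.86). With Klrg1 called at 2000 UMIs the control ratio of Zeb2 was 1.95.

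The other factors differed less between these cells. Id2 was at 914 and 1096 CPM in control cells without and with Klrg1, a ratio of 1.20 (1.07–1.35), and at 974 and 1188 CPM in knockdown cells, a ratio of 1.22 (1.10–1.36). With Klrg1 called at 2000 UMIs the control Id2 ratio turned to 0.994 (0.890–1.11). Tbx21 was at 114 and 129 CPM in control cells and 109 and 126 CPM in knockdown cells, with intervals of the ratio that included 1. Eomes had ratios of 0.815 (0.620–1.05) and 1.08 (0.879–1.32). All 20 control and 21 knockdown Id3 UMIs of these NK cells lay in cells without a Klrg1 UMI after thinning. A count of 0 in the far fewer cells with Klrg1 allows up to 10.5 CPM (3 counts of their UMIs) in the control library. Past 1.5-fold, in either direction, were 0 of the 4 members with 50 or more UMIs in the control library (26.6% of all genes were, 9.12% upwards) and 1 of 4, Zeb2, in the knockdown library (25.5% of all genes, 9.57% upwards).

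Genes known as maturation targets of these factors were read in the same cells. Of the 14 in the list, which includes Klrg1 itself, 8 were higher and 1 lower by 1.5-fold or more in control cells with Klrg1 (median log2 ratio 0.68, against -0.04 over all genes), and 9 higher and 1 lower in knockdown cells (0.79 against -0.02). The split itself fixed the Klrg1 difference. Of all genes 26.6% and 25.5% passed the fold in either direction. S1pr5, the receptor for exit from lymphoid tissue that T-bet and Zeb2 are known to drive, was at 27.9 CPM without and 69.8 CPM with Klrg1 in control cells and at 28.3 and 97.7 CPM in knockdown cells. Gzma, a granule protease, had ratios of 1.63 and 1.72, and Itgam, the CD11b integrin chain, 1.65 and 1.78. Of the immature, memory or ILC1-type genes 2 were higher and 5 lower among 10 tested in control cells, and 2 higher and 8 lower among 11 in knockdown cells. Ltb, a lymphotoxin gene, had ratios of 0.286 and 0.254, and Xcl1 0.320 and 0.418.

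The partner transcription factors passed the fold about as often as all genes did. Among 22 tested, 0 were higher and 6 lower by 1.5-fold or more in control NK cells with Klrg1 and 1 higher and 6 lower in knockdown ones, beside 26.6% and 25.5% of all genes in either direction. Their median log2 ratios were -0.07 and -0.14, against -0.04 and -0.02 over all genes. Tcf7, a factor of immature NK cells and memory T cells, was at 101 CPM without and 52.4 CPM with Klrg1 in control cells and at 126 and 66.2 CPM in knockdown cells. Ikzf2 (Helios) had ratios of 0.353 (0.114–0.836) and 0.173 (0.0355–0.512). Zeb1, the close relative of Zeb2, had ratios of 0.743 (0.366–1.35) and 0.451 (0.205–0.868), below 1 where Zeb2 was above it.

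**Figure D2:**
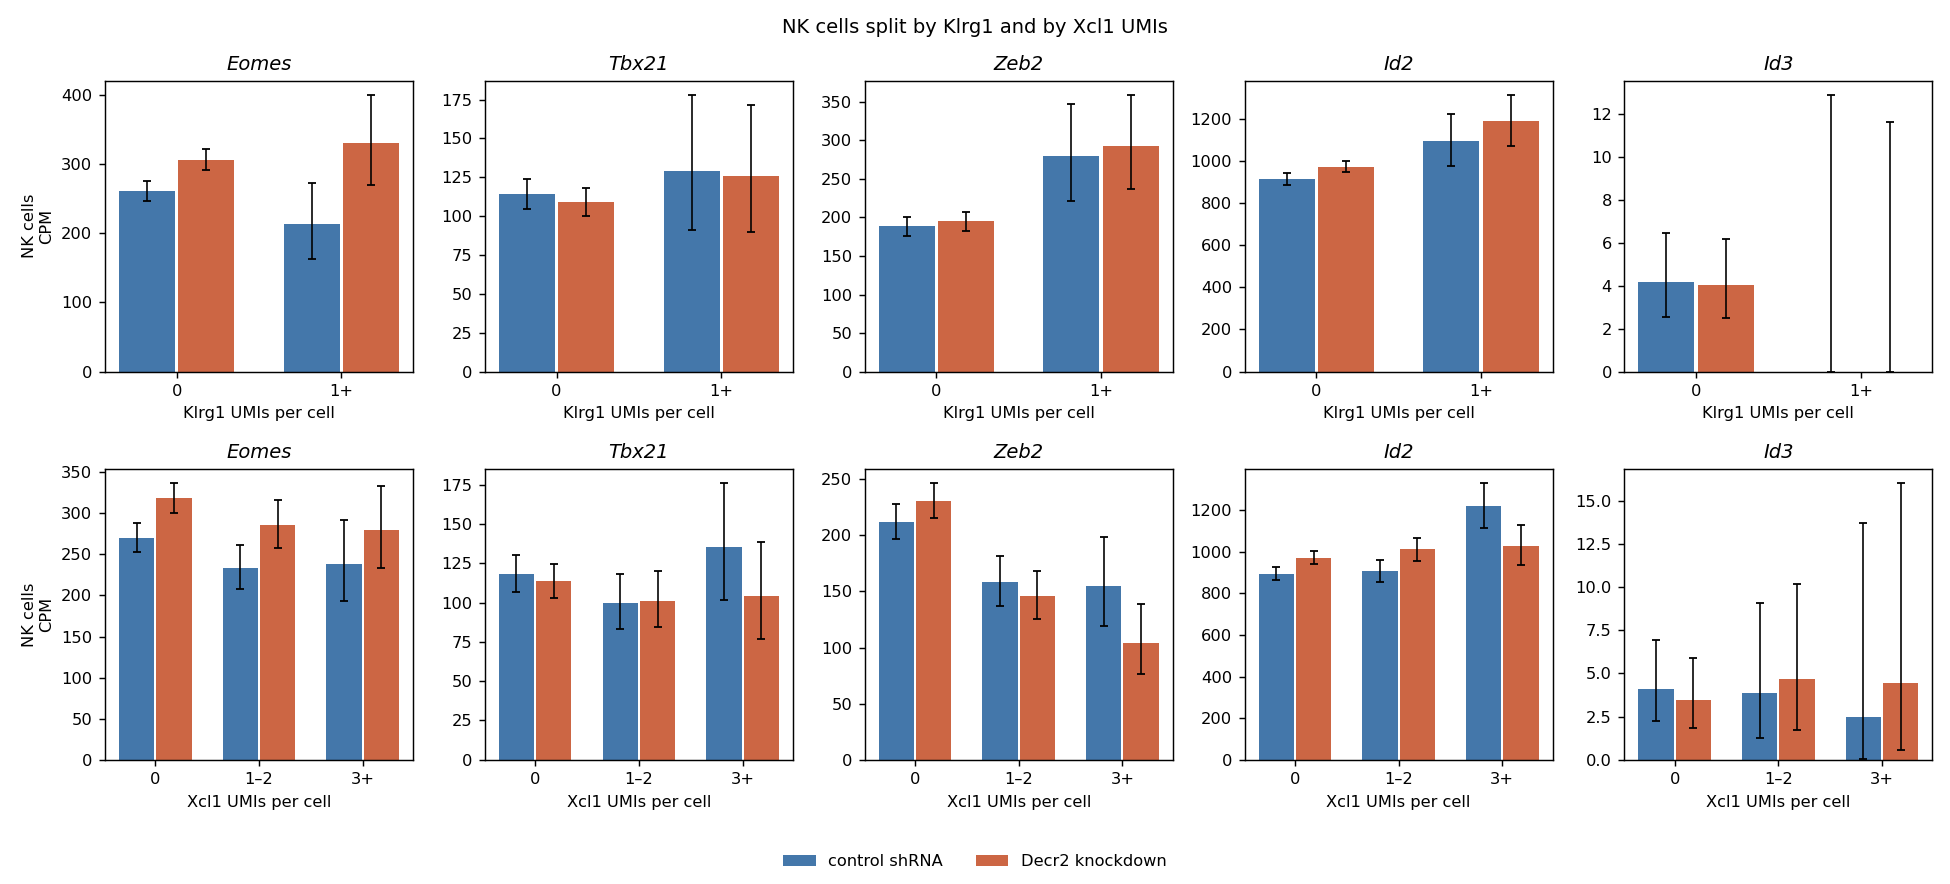
Level of each factor (CPM) in NK cells grouped by Klrg1 UMIs (upper row) and Xcl1 UMIs (lower row), both counted after thinning to 1000 UMIs; bars are library levels and error bars exact 95% Poisson intervals. Zeb2 is higher with Klrg1 (279 and 293 CPM against 188 and 195 CPM) and lower at 3 or more Xcl1 UMIs (155 and 104 CPM against 212 and 231 CPM).

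NK cells rich in Xcl1 had less Zeb2. In the control library Zeb2 was at 212 CPM in 1219 cells without an Xcl1 UMI, 158 CPM in 455 cells with 1 to 2, and 155 CPM in 146 cells with 3 or more. In the knockdown library it was at 231, 146 and 104 CPM in 926, 304 and 101 cells. The ratio of the highest to the lowest Xcl1 group was 0.733 (0.557–0.949) in control cells and 0.452 (0.330–0.606) in knockdown cells. Within cells without Klrg1, Zeb2 went from 206 CPM at 0 Xcl1 UMIs to 155 CPM at 3 or more in control cells and from 226 to 103 CPM in knockdown cells.

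Eomes differed little along Xcl1, at 270, 234 and 239 CPM in control cells and 318, 286 and 280 CPM in knockdown cells, with intervals of the end ratio that included 1. Tbx21 was at 118, 99.7 and 135 CPM and at 114, 101 and 104 CPM. Id2 was at 895, 908 and 1218 CPM in the control library, an end ratio of 1.36 (1.24–1.50), but at 972, 1012 and 1030 CPM in the knockdown library, 1.06 (0.960–1.17). Members past 1.5-fold were 0 of 4 in the control library (17.9% of all genes) and 1 of 4, Zeb2, in the knockdown library (19.4%).

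The maturation targets mirrored the Klrg1 split: 8 of 14 were lower and 1 higher in Xcl1-rich NK cells of each library. Klrg1 had ratios of 0.263 (0.119–0.506) and 0.595 (0.353–0.948), Gzma 0.500 and 0.517, and Cma1, a mast cell protease gene transcribed in tumour NK cells here, 0.353 and 0.237. Ltb was 2.87-fold and 2.58-fold higher. Tcf7 was at 78.1 and 155 CPM in the control library, a ratio of 1.99 (1.48–2.62), and at 108 and 131 CPM in the knockdown library, 1.21 (0.905–1.59). Grouping NK cells by Tcf7 itself gave Zeb2 ratios of 0.836 (0.652–1.06) and 0.583 (0.451–0.741).

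Eomes UMIs in NK cells went with slightly more Zeb2. NK cells with an Eomes UMI after thinning (391 control and 334 knockdown cells) had Zeb2 ratios of 1.33 (1.15–1.54) and 1.20 (1.05–1.38) to those without, and Tbx21 ratios of 1.01 (0.821–1.23) and 1.22 (1.01–1.46). Id2 ratios were 0.979 (0.911–1.05) and 0.988 (0.927–1.05).

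The knockdown and control libraries were next compared within each class; a ratio is knockdown over control. In NK cells Eomes was the factor with the clearest difference, at 1.19 (1.10–1.28), from 1322 and 1698 UMIs. Tbx21 was at 0.963 (0.858–1.08), Zeb2 at 1.03 (0.943–1.12), Id2 at 1.07 (1.03–1.11) and Id3 at 0.969 (0.508–1.85). A ratio at least 25% above 1, or below 1 by the same factor, was counted as past the mark between libraries. Of the 4 members with 50 or more UMIs 0 passed it, against 17.4% of all genes. In NK cells of 2000 to 6000 UMIs, a window chosen after seeing the depth gap, Eomes was at 1.22 and Zeb2 moved to 1.21. Eomes ratios stayed between 1.17 and 1.22 in the 3 Xcl1 groups, and were 1.17 (1.09–1.26) without and 1.55 (1.12–2.17) with Klrg1, intervals that overlap. Id2 and Zeb2 were less even over the Xcl1 groups. From 0 to 3 or more Xcl1 UMIs, Id2 ratios were 1.09, 1.11 and 0.845 (0.743–0.961). Zeb2 ratios were 1.09, 0.921 and 0.673 (0.451–0.997).

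CD8 T cells showed a different set. Id3 was at 6.63 CPM (86 UMIs) in control cells and 12.9 CPM (209 UMIs) in knockdown cells, giving 1.94 (1.51–2.53). Tbx21 had 1.23 (1.09–1.40), Eomes 0.860 (0.781–0.946), Zeb2 0.888 (0.794–0.992) and Id2 0.916 (0.884–0.950). Past the 25% mark was 1 of 5 members, Id3, against 15.2% of all genes. UMIs of Eomes per UMI of Tbx21 were 2.02 (1.79–2.28) in control and 1.41 (1.27–1.56) in knockdown CD8 T cells, while in NK cells they were 2.26 (2.05–2.50) and 2.79 (2.54–3.07).

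The T-box differences in CD8 T cells depended on which cells were counted. In cells of 2000 to 6000 UMIs Eomes was at 1.09 (0.813–1.44) and Tbx21 at 0.996 (0.705–1.39), on the other side of 1 in each case, with 243 knockdown cells left. Cycling cells, those with UMIs of at least 2 proliferation genes, made 38.1% and 39.1% of CD8 T cells and were deeper. In them Tbx21 had a ratio of 1.44 (1.20–1.72) and Eomes 0.800 (0.704–0.908), whereas in the other CD8 T cells Tbx21 had 1.04 (0.872–1.252) and Eomes 0.945 (0.816–1.09). Zeb2 had 1.07 (0.899–1.27) in cycling cells and 0.766 (0.660–0.889) in the others. The part of depth in these ratios was not tested beyond the window.

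Id3 differed in the CD8 T cells that were not cycling. There it was at 9.99 CPM in control and 23.4 CPM in knockdown cells, a ratio of 2.34 (1.73–3.21), and in cycling cells at 3.91 and 4.27 CPM, 1.09 (0.653–1.85). An Id3 UMI was present in 53 of 1560 control and 116 of 1205 knockdown CD8 T cells. These cells also held more of the myeloid gene Lyz2, at 141 against 60.4 CPM in control cells and 235 against 33.1 CPM in knockdown cells, and monocytes and macrophages are the class with most Id3. Without cells that held a Lyz2, Cd68 or Csf1r UMI after thinning the Id3 ratio was 1.74 (1.34–2.29). The part of myeloid transcripts in the Id3 levels and in this ratio was not tested beyond that setting.

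**Figure D3:**
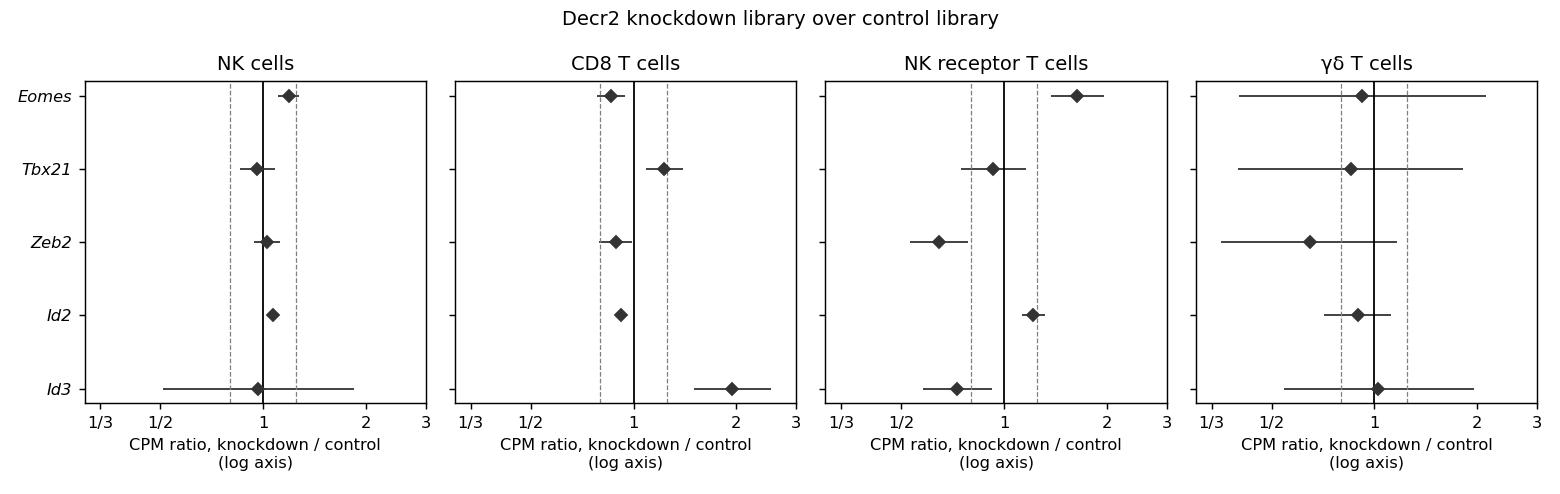
Ratio of knockdown to control CPM (log axis) for each factor in 4 classes, with exact 95% intervals for counting error; the solid line is 1 and the dashed lines show the 25% mark in either direction. Id3 lies at 1.94 in CD8 T cells and at 0.731 in NK receptor T cells, and Eomes at 1.19, 0.860 and 1.64 in NK, CD8 T and NK receptor T cells.

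Id3 was enriched in CD8 T cells with Tcf7. Most of its UMIs still lay in the far more numerous cells without a Tcf7 UMI after thinning (63 control and 156 knockdown UMIs, against 23 and 53 in cells with one). Such cells may hold Tcf7 UMIs at full depth. Tcf7 (TCF-1) is the factor of naive, memory and precursor exhausted T cells, and a UMI was found in 65 of 1560 thinned control and 87 of 1205 thinned knockdown cells. Id3 was at 4.97 CPM in control cells without and 75.5 CPM in those with Tcf7, a ratio of 15.2 (8.98–24.8). In the knockdown library it was at 10.0 and 79.0 CPM, 7.87 (5.65–10.8). At 2000 UMIs, 10 control cells held both Id3 and Tcf7 where the product of shares gives 1.91, and 29 knockdown cells where it gives 5.42.

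Id2 was lower in the same Tcf7 cells, at 233 against 436 CPM in the control library, a ratio of 0.534 (0.417–0.675), and 155 against 405 CPM in the knockdown library, 0.383 (0.312–0.464). Eomes was higher at 91.9 against 63.7 CPM, 1.44 (0.952–2.10), and at 104 against 53.2 CPM, 1.96 (1.51–2.51). Zeb2 was at 23.0 against 47.1 CPM, 0.487 (0.195–1.01), and at 34.3 against 41.6 CPM, 0.825 (0.519–1.249). Tbx21 had ratios of 0.821 (0.352–1.63) and 0.637 (0.368–1.03). Past 1.5-fold were 3 of 5 members in control cells and 4 of 5 in knockdown cells, but 44.2% and 36.7% of all genes were too. Tcf7 cells were shallower, with medians of 3531 and 6104 UMIs against 6546 and 11210.5.

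Knockdown CD8 T cells held more Tcf7, 46.2 against 24.2 CPM, a ratio of 1.91 (1.67–2.18). Among 25 partner factors tested 4 were higher, Tcf7, Lef1 (1.40), Bach2 (1.58) and Bcl6 (1.46), all known for naive or memory-type cells. Another 5 were lower: Prdm1 (0.790), which codes for Blimp-1, Tox (0.796), Tox2 (0.539), Rora (0.780) and Batf (0.798). Of the immature or memory genes 4 of 11 were higher, among them Il7r (2.14) and Ccr7 (2.36), and 1 was lower; 15.2% of all genes passed the mark. Both genes were also higher in classes other than CD8 T cells. In the control and knockdown libraries Il7r was at 87.8 and 187 CPM in regulatory T cells and 52.2 and 94.1 CPM in monocytes and macrophages, and Ccr7 was at 39.8 and 82.5 CPM in conventional dendritic cells. Within cells without a Tcf7 UMI after thinning, the Id3 ratio of knockdown to control was 2.02 (1.50–2.75), and within Tcf7 cells 1.05 (0.631–1.79). Thinning can leave cells with Tcf7 in the first group, and knockdown CD8 T cells were the deeper ones. The part of depth in the ratio of 2.02 was not tested. Without any cell that held a Tcf7, Ccr7 or Lef1 UMI after thinning, the Id3 ratio was 3.07 (2.11–4.57).

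CD8 T cells with an Xcl1 UMI, 60 in control and 43 in knockdown cells, also had more Id3. It was at 5.21 CPM without and 41.9 CPM with Xcl1 in the control library, a ratio of 8.03 (4.66–13.3), and at 12.1 and 37.4 CPM in the knockdown library, 3.08 (1.787–4.9998). With Xcl1 called at 2000 UMIs the control Id3 ratio was 2.75. Zeb2 was higher as well, at 45.6 and 71.8 CPM, 1.58 (1.09–2.21), and at 40.2 and 76.9 CPM, 1.91 (1.33–2.67). This is the opposite side of 1 from its Xcl1 ratio in NK cells, although without cycling cells the knockdown ratio of Zeb2 in CD8 T cells was 0.943 (0.543–1.53). Past 1.5-fold were 2 of 5 members in each library, against 25.9% and 30.2% of all genes. Only 25 control and 11 knockdown CD8 T cells had a Klrg1 UMI after thinning. In the control ones Zeb2 had a ratio of 1.54 (0.816–2.66) to cells without Klrg1, from 13 UMIs and with an interval that includes 1. In the knockdown ones it was at 17.8 CPM (2 UMIs), against 41.4 CPM in cells without Klrg1.

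**Figure D4:**
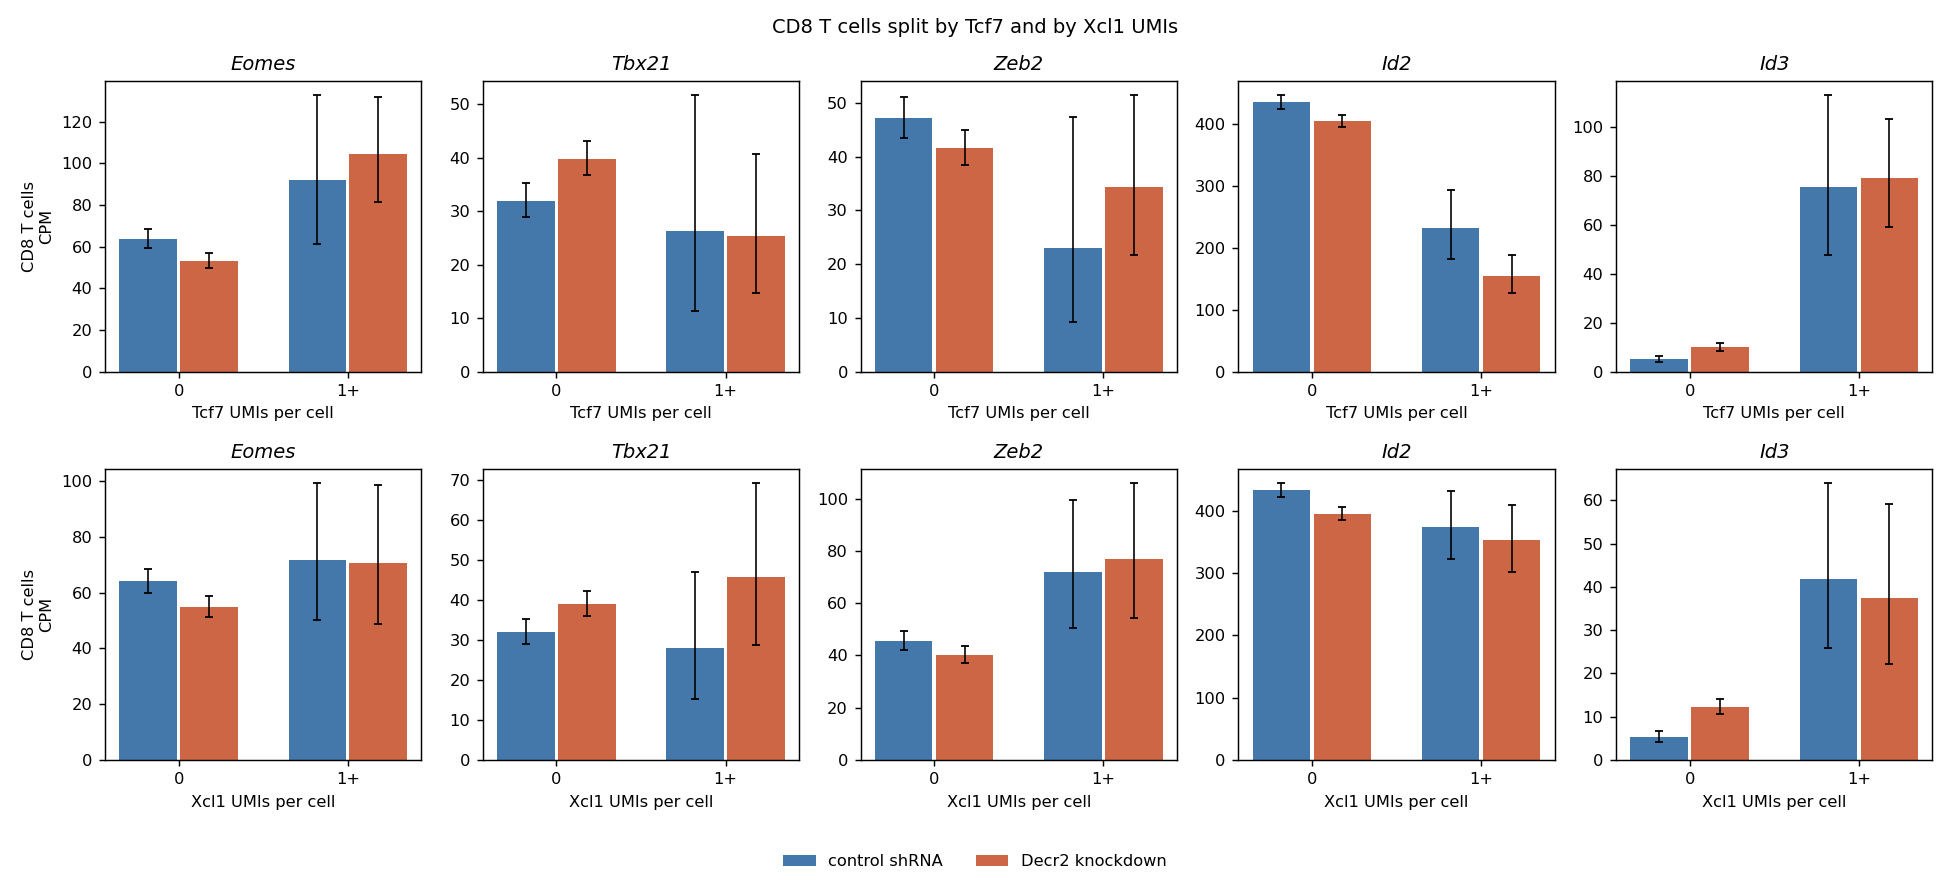
Level of each factor (CPM) in CD8 T cells grouped by Tcf7 UMIs (upper row) and Xcl1 UMIs (lower row) after thinning to 1000 UMIs; bars are library levels and error bars exact 95% Poisson intervals. Id3 stands at 75.5 and 79.0 CPM with Tcf7 against 4.97 and 10.0 CPM without it, and Id2 runs the other way.

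NK receptor T cells had the most members past the fold between the libraries. Eomes was at 88.5 CPM (190 UMIs) in control and 145 CPM (378 UMIs) in knockdown cells, a ratio of 1.64 (1.38–1.97). Zeb2 was at 113 and 73.1 CPM, 0.645 (0.531–0.784), and Id3 at 73.1 and 53.5 CPM, 0.731 (0.577–0.924). Id2 had 1.22 (1.13–1.32) and Tbx21 0.931 (0.746–1.16). Past the 25% mark were 3 of 5 members, against 23.9% of all genes. Zeb2 UMIs per Eomes UMI were 1.28 (1.05–1.55) in control and 0.503 (0.420–0.600) in knockdown cells.

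These ratios moved with the makeup of the gate. Trac was at 270 and 195 CPM and Lyz2 at 298 and 140 CPM in the gates of the 2 libraries. Without cells that held a myeloid UMI after thinning, all 15 ratios of the members in NK, CD8 T and NK receptor T cells kept direction and stayed within the counting interval. The part of the makeup in the ratios was not tested beyond the settings given here. In cells with a Trac UMI Eomes was at 1.15 (0.800–1.66) and Zeb2 at 0.412 (0.287–0.583). With the gate applied to thinned cells Eomes was at 1.05 (0.671–1.62) and Zeb2 at 0.386 (0.237–0.605). In cells of 2000 to 6000 UMIs Eomes was at 1.52 (1.21–1.91) and Zeb2 at 0.845 (0.639–1.12).

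Ncr1 split the NK receptor T cells into parts with different factors. Ncr1 codes for the NK cell receptor NKp46 and belongs to the gate, and 205 of 664 control and 182 of 524 knockdown cells of at least 1000 UMIs held a UMI of it. Eomes was at 52.5 CPM without and 161 CPM with Ncr1 in the control library, 3.07 (2.28–4.17), and at 87.7 and 234 CPM in the knockdown library, 2.66 (2.15–3.31). Id3 was at 91.0 and 37.9 CPM, 0.416 (0.264–0.634), and at 82.0 and 9.74 CPM, 0.119 (0.0556–0.225). Id2 was 1.72-fold (1.53–1.94) and 1.95-fold (1.76–2.15) higher with Ncr1. Zeb2 was 2.47-fold (1.90–3.20) higher in the control but only 1.19-fold (0.881–1.60) in the knockdown library. Past 1.5-fold were 5 of 5 members in the control library (13.1% of all genes) and 3 of 5 in the knockdown library (14.2%).

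Cells with Ncr1 were closer to NK cells in other markers too, with Trac at 115 against 348 CPM in control cells and 47.7 against 291 CPM in knockdown cells. In cells with Ncr1 the ratio of knockdown to control was 1.45 (1.15–1.82) for Eomes, 0.430 (0.323–0.569) for Zeb2 and 0.257 (0.111–0.548) for Id3. In cells without Ncr1 it was 1.67 (1.253–2.25) for Eomes, 0.892 (0.677–1.18) for Zeb2 and 0.902 (0.701–1.16) for Id3. Eomes was thus higher in the knockdown library on both sides of the split.

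**Figure D5:**
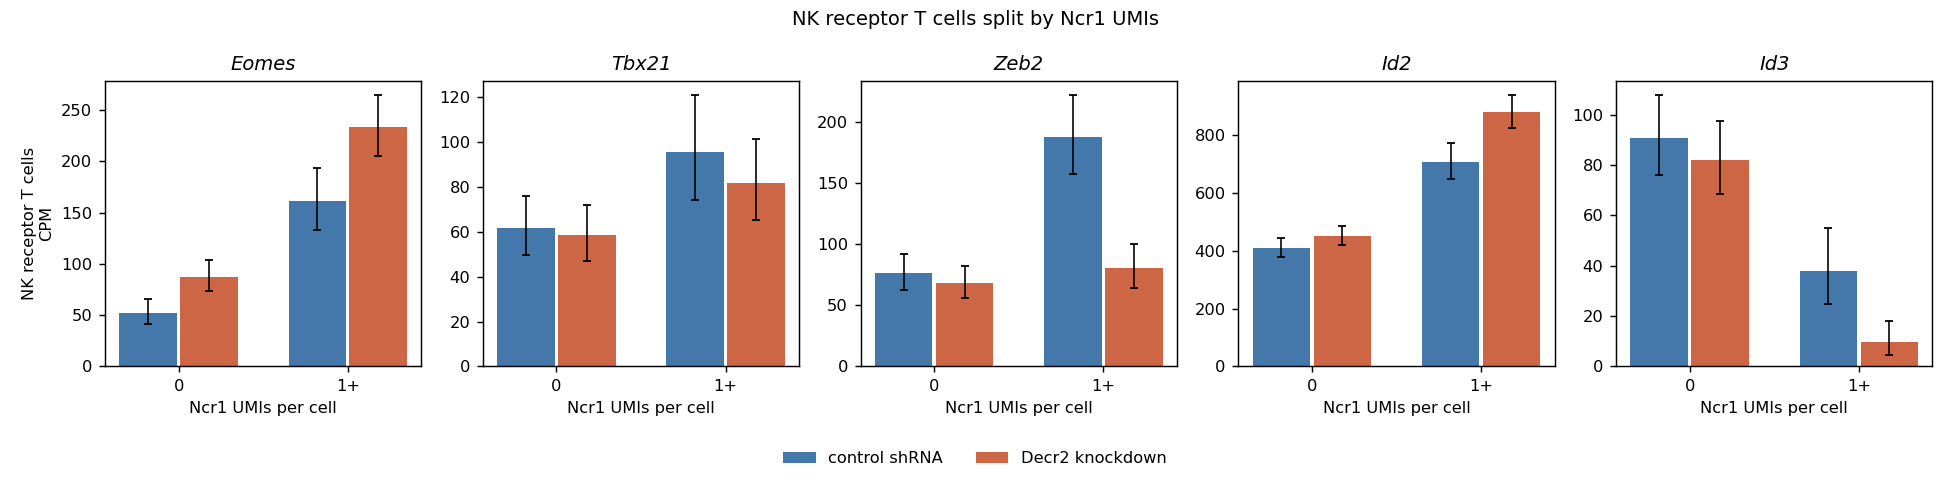
Level of each factor (CPM) in NK receptor T cells with and without an Ncr1 UMI; bars are library levels and error bars exact 95% Poisson intervals. Eomes and Id2 are higher with Ncr1 and Id3 is lower with it, in both libraries.

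Maturation genes went both ways in NK receptor T cells. Klrg1 was at 24.7 CPM in control and 11.2 CPM in knockdown cells, a ratio of 0.452 (0.277–0.723), Cx3cr1 at 0.219 (0.109–0.410) and S1pr5 at 0.444 (0.248–0.774). Of the 14 maturation genes 6 were lower, 3 higher and 5 within the 25% mark, which 23.9% of all genes passed, and the median log2 ratio was -0.22. The 3 higher ones were Cma1, at 10.2 and 113 CPM (ratio 11.0, 7.12–17.8), Prf1 (1.28) and Il2rb (1.30), and that of Cma1 was the largest difference of the list. Among the 20 control cells with a Klrg1 UMI after thinning Zeb2 was at 440 CPM, against 105 CPM in the others, a ratio of 4.21 (2.66–6.38). The knockdown library had 6 such cells, too few to split. Along Xcl1, control Zeb2 went from 160 CPM at 0 UMIs to 48.2 CPM at 3 or more, and knockdown Zeb2 from 88.9 to 60.8 CPM, while Eomes went from 82.8 to 145 CPM and from 130 to 204 CPM.

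Gamma delta T cells held too few UMIs for a comparison of the libraries. Id2 was at 420 and 375 CPM, 0.893 (0.710–1.12), and Zeb2 at 80.1 and 51.9 CPM, 0.647 (0.354–1.17). Every member's interval included 1. Of the 2 members with 50 UMIs or more, 1 passed the 25% mark, against 38% of all genes. The IL-17 type genes Cd163l1 and Il17a were at 69.1 and 106 CPM and at 8.29 and 51.9 CPM in this gate.

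The relatives of the members gave few differences between the libraries. Of the 4 E protein, Id and Zeb relatives with 50 or more UMIs, Tcf3, Tcf4, Tcf12 and Zeb1, 0 passed the 25% mark in NK cells and in CD8 T cells and 1 did in NK receptor T cells (Tcf4, 1.69). These counts stand beside shares of all genes of 17.4% in NK cells, 15.2% in CD8 T cells and 23.9% in NK receptor T cells. Of 14 T-box relatives only Mga had enough UMIs in NK, CD8 T or NK receptor T cells, and it passed the fold in none of them. In NK cells 3 of 23 partner factors were higher, Tcf7 (98.0 and 123 CPM), Bach2 (ratio 1.60) and Rora (1.48), and 1 was lower, Batf (0.791), which is no more than the share of all genes. Of the immature or ILC1-type genes 4 of 11 were higher in knockdown NK cells, Il7r (1.96), Itga1 (1.58), Tnfsf10 (1.39) and Ccr7 (6.51, from 4.71 to 30.6 CPM). Il7r (52.2 and 94.1 CPM), Itga1 (22.7 and 41.8 CPM) and Ccr7 (9.28 and 24.9 CPM) were also higher in knockdown monocytes and macrophages, and Tnfsf10 was not (5.12 and 5.11 CPM). Of the maturation genes 1 of 14 was higher in knockdown NK cells, Cma1 (1.47), and 1 lower, Cx3cr1 (0.752). The median log2 ratio of all genes was between -0.02 and 0.02 in the 4 classes.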

How the data were processed

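The deposited UMI counts, 1 per gene in each barcode, were produced by the authors from 10x Genomics 3′ libraries with Cell Ranger 6.1.2 against mm10, and Seurat 4.3 was also named, per the submitters' processing notes. Whether the counting used strand or introns is not given in the sources used here. Cells with at least 500 UMIs, at least 200 genes and at most 10% mitochondrial UMIs were kept, after removal of the barcodes with the highest Scrublet scores (scanpy 1.11.5; 0.8% for every 1000 barcodes). Cells were gated on marker UMIs. NK cells held 0 CD3 UMIs and at least 2 of Ncr1 and Klrb1c; NK receptor T cells held at least 2 CD3 UMIs and at least 2 over Ncr1, Klrb1c and 9 Klra genes. UMIs were summed per class and library and divided by the class total (CPM). Intervals are exact Poisson for levels and exact binomial for ratios and shares, at the 95% level, and PCR and sampling of cells beyond counting are not covered.

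Klrg1, Xcl1, Tcf7 and Eomes groups were called on cells thinned to 1000 UMIs, leaving out shallower cells, and levels in them use all UMIs. Ncr1 and Id3 groups were called without thinning. Cycling cells held UMIs of at least 2 of 10 proliferation genes. Genes with at least 50 UMIs over a pair were counted as past the mark at 25% above 1 or below it by the same factor between libraries, 1.5-fold between groups of cells and 2-fold between classes, and list medians use log2(CPM + 1). With 1 library per group there is no test, so no p-value was computed and a fold is a description of these libraries. The interval script was checked on simulated data. The 5 members and the lists were chosen with earlier results of these data known, 1 listed gene is not reported here, and the genes named from them were the members, genes past the fold and a few with textbook roles. The 3 most similar genes per member were ranked among 5601 genes. Promoters are RefSeq sequences and gene positions GENCODE M21, in which 32158 of 32285 gene IDs were found. Settings chosen after seeing the data were the window of 2000 to 6000 UMIs, at most 1 CD3 UMI, 0 Ncr1 UMIs, a Trac UMI, no Tcf7, Ccr7 or Lef1 UMI, no myeloid UMI, and the Xcl1 groups of CD8 T cells.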

Additional observations from a re-analysis of the deposited data

Results flagged for a closer look

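Among NK, CD8 T and NK receptor T cells, 3 factors had ratios of knockdown to control on both sides of 1 with intervals that left out 1. Eomes was higher in the knockdown library in NK cells, at a ratio of 1.19, and in NK receptor T cells, at 1.64, but lower in CD8 T cells, at 0.860. In cells of 2000 to 6000 UMIs the CD8 T cell ratio of Eomes turned to 1.09 (0.813–1.44), and with gates on thinned cells that of NK receptor T cells was 1.05 (0.671–1.62). Id2 followed the same pattern with smaller ratios, 1.07 in NK cells, 1.22 in NK receptor T cells and 0.916 in CD8 T cells. Id3 was higher in CD8 T cells, at 1.94, and lower in NK receptor T cells, at 0.731, which moved to 0.945 (0.559–1.57) with gates on thinned cells. The difference between classes was not tested, since each library is 1 sample.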

How the results depend on the processing

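Of the ratios of knockdown to control, 175 settings kept direction within the counting interval, 23 moved past the counting interval and 2 turned direction. For Klrg1 groups these were 78, 1 and 1, and for Xcl1 groups 113, 6 and 1. In cells of 2000 to 6000 UMIs the ratios of Eomes (1.09) and Tbx21 (0.996) in CD8 T cells turned, while Tbx21 (1.10), Zeb2 (1.21) and Id2 (1.15) in NK cells, Zeb2 (0.753) and Id3 (2.60) in CD8 T cells and Zeb2 (0.845) in NK receptor T cells moved. With gates on thinned cells Id2 (1.19) and Id3 (2.26) in NK cells, Id2 (0.955) in CD8 T cells, and Eomes (1.05), Zeb2 (0.386) and Id3 (0.945) in NK receptor T cells moved. At most 1 CD3 UMI gave Id2 1.13 in NK cells. Without cycling cells Tbx21 was 1.04 and Zeb2 0.766 in CD8 T cells, and without Tcf7, Ccr7 or Lef1 UMIs Id3 was 3.07 there and Tbx21 1.28, past the 25% mark. In NK receptor T cells, thresholds raised by 1 gave Eomes 1.20, a Trac UMI gave Eomes 1.15, Zeb2 0.412 and Id2 1.06, 0 Ncr1 UMIs gave Zeb2 0.895 and Id2 1.10, and kept doublets gave Zeb2 0.784. By Klrg1 at 2000 UMIs, control NK cells gave Zeb2 1.95 and Id2 0.994, which turned. By Xcl1 at 2000 UMIs Id2 was 1.20 in control NK cells, 0.957 in knockdown NK cells and 1.36 in control NK receptor T cells, and Id3 was 2.75 in control CD8 T cells. By Xcl1 without cycling cells Id2 was 1.01 in control CD8 T cells, and Zeb2 turned to 0.943 in knockdown CD8 T cells, where it was 1.23 without myeloid UMIs. The cause was not tested in any of these.

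With a minimum of 20 in place of 50 UMIs, genes past the 25% mark numbered 2391 in place of 1554 in NK cells, 2305 in place of 1562 in CD8 T cells and 2897 in place of 1746 in NK receptor T cells. Shares of cells with a UMI rose with depth, and at 2000 UMIs 28 moved and 2 did not. No paired analysis was possible because each group is 1 library, and for the same reason no replicate could be left out. Id3 in NK cells and every member in gamma delta T cells were limited by few UMIs.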

Other observations

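CD8 T cells with an Id3 UMI carried other genes of TCF-1 type cells. Against CD8 T cells without one, Tcf7 was at 169 against 19.6 CPM in the control library and 216 against 32.8 CPM in the knockdown library. Xcl1 was at 527 against 49.6 CPM and 251 against 53.7 CPM. Xcl1 was uneven over CD8 T cells: the top cell held 163 of 832 UMIs in the control library and 116 of 1105 in the knockdown library. Whether those cells held Id3 is not given here. The cells with Id3 also held more of the myeloid gene Lyz2 in both libraries, as given above. The granzyme gene Gzmb was lower, at 540 against 1309 CPM and 455 against 1360 CPM. Id2 had ratios of 0.601 (0.490–0.729) and 0.522 (0.458–0.592). These groups were called without thinning, and the part of depth was not tested.

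Outside the NK and CD8 T cells, regulatory T cells had less Id2 in the knockdown library, 338 against 451 CPM, a ratio of 0.751 (0.649–0.869). Zeb2 was at 93.0 against 153 CPM in B cells, 0.608 (0.400–0.916), and at 127 against 82.2 CPM in CD4 T cells, 1.55 (1.01–2.43). In the knockdown CD4 T cells 1 cell held 20 of the 82 Zeb2 UMIs, and the mean over cells was 105 against 93.4 CPM. The UMIs per member were few in these classes and the ratios have no replicate check.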
